A study of Mus musculus with 2 samples.

Results

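Transcripts of receptors and surface proteins that define blood vessel endothelium were read in limb buds of mouse embryos at E10.5. The set held 10 genes: the VEGF receptors Kdr, Flt1 and Flt4, the Tie receptors Tek and Tie1, the endothelial markers Pecam1, Cdh5, Eng and Emcn, and the ligand Vegfa. They were chosen by name, and every probe set annotated with a single one of these symbols was read separately, which gave 17 of 34945 single-symbol probe sets and 10 of 18193 genes. By Entrez gene number they are Kdr 16542, Flt1 14254, Flt4 14257, Tek 21687, Tie1 21846, Pecam1 18613, Cdh5 12562, Eng 13805, Emcn 59308 and Vegfa 22339. Flt1 had 4 probe sets, Flt4, Cdh5, Eng and Vegfa had 2 each, and the other 5 genes had 1.

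RNA came from Bhlha9 knockout embryos (1 array) and wild-type embryos (1 array), both of the C57BL/6 line and both taken as whole limb bud at E10.5. The Bhlha9 protein belongs to the basic helix-loop-helix family and is made in the limb bud. The series asks how its loss affects limb bud transcripts. The knockout allele, the number of embryos behind each RNA and the mix of fore and hind limbs were not stated in the labels. Limb buds hold mesenchyme, ectoderm, vessels, blood and invading muscle and nerve together. Fewer endothelial cells and less RNA per endothelial cell therefore cannot be told apart.

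Values are MAS 5.0 signals, intensities on a linear scale, and both arrays have the same 2% trimmed mean, with medians of 77.3 on the knockout and 79.6 on the wild-type array. A signal counted as detected above a floor, the 40th percentile of all probe sets, which was 41.8 on the knockout and 41.2 on the wild-type array. Each genotype has 1 array, so no test was possible and every ratio is a description of this pair of arrays. A measurement error was read from 5440 genes with a pair of detected probe sets: their disagreement gave a robust SD of 0.28 for 1 log2 ratio. In 5 equal classes by the signal of the dimmer probe set of each pair, it was 0.46 in the dimmest and 0.15 in the brightest. This SD leaves out differences between embryos and dissections. The single Bhlha9 probe set read 1.70 on the knockout and 7.87 on the wild-type array, so neither signal reached the floor and the knockout could not be checked through this gene. Whether the probe set lies in the deleted part was not analysed here.

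The limb bud is vascularised from its earliest outgrowth by a plexus of endothelial tubes. VEGF-A, secreted by surrounding tissue, binds the tyrosine kinase receptors VEGFR2 (Kdr), the main signalling receptor of endothelium, and VEGFR1 (Flt1), which binds the ligand tightly and limits its action. VEGFR3 (Flt4) serves VEGF-C and VEGF-D, and the angiopoietin receptor Tie2 (Tek) acts with the related orphan receptor Tie1 in vessel remodelling. VE-cadherin (Cdh5) and PECAM-1 join endothelial cells to each other, endoglin (Eng) is a TGF-beta and BMP co-receptor, and endomucin (Emcn) is a sialomucin of the endothelial surface, strongest in veins and capillaries.

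Windows of 250 bases before the annotated starts of 8 of these genes were read from RefSeq, build GRCm38.p6, since most of the receptor and marker genes shifted the same way. No window was available for Pecam1 and Cdh5, so these were not searched. ETS factors such as Erg and Fli1 bind a GGAA core in many endothelial genes, so the letters AGGAAG were searched on both strands. Of 9 windows, Vegfa having 2, the motif was in 4, those of Flt1, Tie1, Eng and Emcn, against 29.5% of the 32851 windows in the table. Those of Flt1, Eng and Emcn held 2, and 6.25% of all windows held the motif 2 or more times. Neither Vegfa window held it, and 1 of them lies downstream of the other annotated Vegfa start. The GATA motif AGATAA was in 1 window, of Vegfa, against 9.99% of all. The windows of Kdr and Emcn, which lay at both ends of the log2 ratios detected on both arrays, and of Flt1 and Eng, which hold 2 motifs each, are shown with AGGAAG or its reverse complement in capitals. They lie at chr5:75978456-75978705, minus strand (Kdr), chr3:137340828-137341077, plus strand (Emcn), chr5:147726012-147726261, minus strand (Flt1) and chr2:32646345-32646594, plus strand (Eng), and each is written 5′ to 3′ on the strand of its gene.
Kdr: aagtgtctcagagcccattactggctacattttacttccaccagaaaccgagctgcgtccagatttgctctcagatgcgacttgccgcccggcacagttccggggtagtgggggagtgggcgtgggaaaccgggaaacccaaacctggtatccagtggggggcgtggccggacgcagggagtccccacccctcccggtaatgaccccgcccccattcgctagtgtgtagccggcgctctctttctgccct
Emcn: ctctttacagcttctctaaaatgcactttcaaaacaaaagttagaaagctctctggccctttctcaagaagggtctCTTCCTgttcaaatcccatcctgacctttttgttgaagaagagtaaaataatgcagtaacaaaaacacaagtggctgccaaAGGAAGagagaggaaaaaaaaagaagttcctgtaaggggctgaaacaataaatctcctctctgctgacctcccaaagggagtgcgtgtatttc
Flt1: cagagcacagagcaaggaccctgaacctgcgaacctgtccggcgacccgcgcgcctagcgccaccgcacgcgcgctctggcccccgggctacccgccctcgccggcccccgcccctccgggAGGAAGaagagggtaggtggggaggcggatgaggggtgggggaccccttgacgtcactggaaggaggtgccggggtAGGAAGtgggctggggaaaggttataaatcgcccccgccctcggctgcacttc
Eng: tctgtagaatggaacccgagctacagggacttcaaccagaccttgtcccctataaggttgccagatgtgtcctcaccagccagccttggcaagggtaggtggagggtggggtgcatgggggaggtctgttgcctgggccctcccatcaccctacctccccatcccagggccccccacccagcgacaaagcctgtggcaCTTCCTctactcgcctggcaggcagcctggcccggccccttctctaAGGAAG
The first bases of the motifs stood 174 and 93 bases before the start in Emcn, 129 and 53 in Flt1, 52 and 6 in Eng, and 219 in Tie1. The motif did not sort the genes by direction: it was in windows of genes that read lower and of Emcn, which read higher. A match is a string of letters in this window and not a shown binding site.

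Markers of several other tissues differed between the same 2 arrays. Limb mesenchyme genes were all detected, and 8 of 20 passed 2-fold downward and 0 upward. Their median was -0.89, with a summed signal of 33809 on the knockout array and 54612 on the wild-type array. Liver parenchyma had 12 of 12 detected genes at least 2-fold higher, with a summed signal of 33804 on the knockout array and 196 on the wild-type array, where 11 of the 12 were under the floor. At least 2-fold higher were also 11 of 14 genes of neural tube and nerve, 9 of 12 of muscle and 7 of 13 of surface ectoderm and epithelium. These 3 lists had summed signals of 5620, 4913 and 11320 on the knockout array and 1162, 2415 and 6470 on the wild-type array. The medians of the liver, nerve, muscle and ectoderm lists were 4.56, 2.05, 1.67 and 1.01. With the floor at the 60th and the 20th percentile, they were 2.79 and 6.56 for liver, 1.60 and 2.80 for nerve, and 0.61 and 2.70 for muscle. Genes of liver sinusoid and endocardium, endothelia of other organs, had a median of 0.07, or -0.34 over those detected on both arrays. Under the alternatives the median ran from -0.29 to 0.20. Stab2 was 2.11-fold higher, with a wild-type signal of 43.0 just past the floor, and Oit3 was at least 4.44-fold higher. Of the 6 genes detected on both arrays, 3 were negative, Nfatc1, Fcgr2b and Stab1, at -0.96, -0.78 and -0.74. These differences in tissue markers stand beside every ratio that follows, and their part in the members' ratios was not tested.

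**Figure D1:**
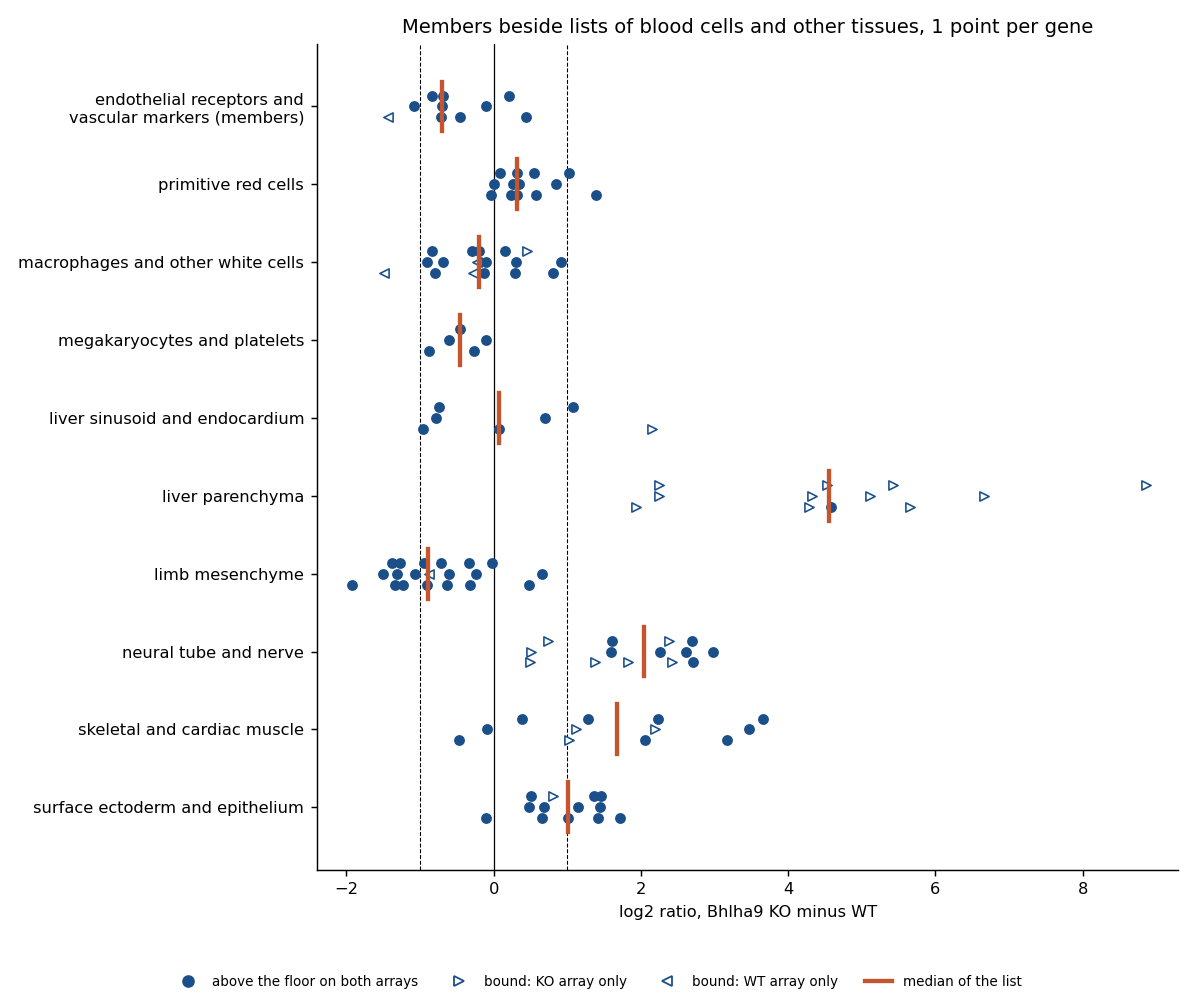
Log2 ratio (Bhlha9 knockout minus wild-type) of the members beside lists of blood cells and other tissues, 1 point per gene, with open triangles for bounds and a bar at each median. The medians of the members and limb mesenchyme lie left of 0 (-0.70 and -0.89), while those of the liver, neural, muscle and ectoderm lists lie right of it. Single genes of the members and of the limb mesenchyme, muscle and ectoderm lists lie on the other side.

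Transcripts of endothelial receptors and of the junction genes Cdh5 and Pecam1 were mostly lower on the knockout array. Those of Emcn and the ligand Vegfa read slightly higher, and that of Tek was nearly level. Each of the 17 probe sets passed the floor somewhere, and 12 passed it on both arrays. Of these 12, 10 had a negative log2 ratio, where 54.7% of all probe sets detected on both arrays did, and the median was -0.45 against -0.06 over all of them. The 10 include Tek at -0.10 and a Flt1 probe set at -0.00041, and both changed sign under other scalings. Tek also counts among the negative genes below. At the gene level, by the brightest probe set, 8 of 10 ratios were negative and the median was -0.70, with Tie1 at its bound. Over genes detected on both arrays, 7 of the 9 members were negative, with a median of -0.69, while 50.9% of all such genes were negative, with a median of -0.01. At least 2-fold lower were 3 probe sets, with 4.51% of all probe sets detected on at least 1 array as low, and 0 were at least 2-fold higher, against 3.22% of all. At 1.5-fold, 8 of the 17 were lower, against 15.6% of all, and 1, the dim Vegfa probe set, was higher. The 8 include bounds for Tie1, the dimmer Flt4 and the dimmest-reading Flt1 probe set on the knockout array. The shift was thus made of many moderate ratios and few large ones.

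**Figure D2:**
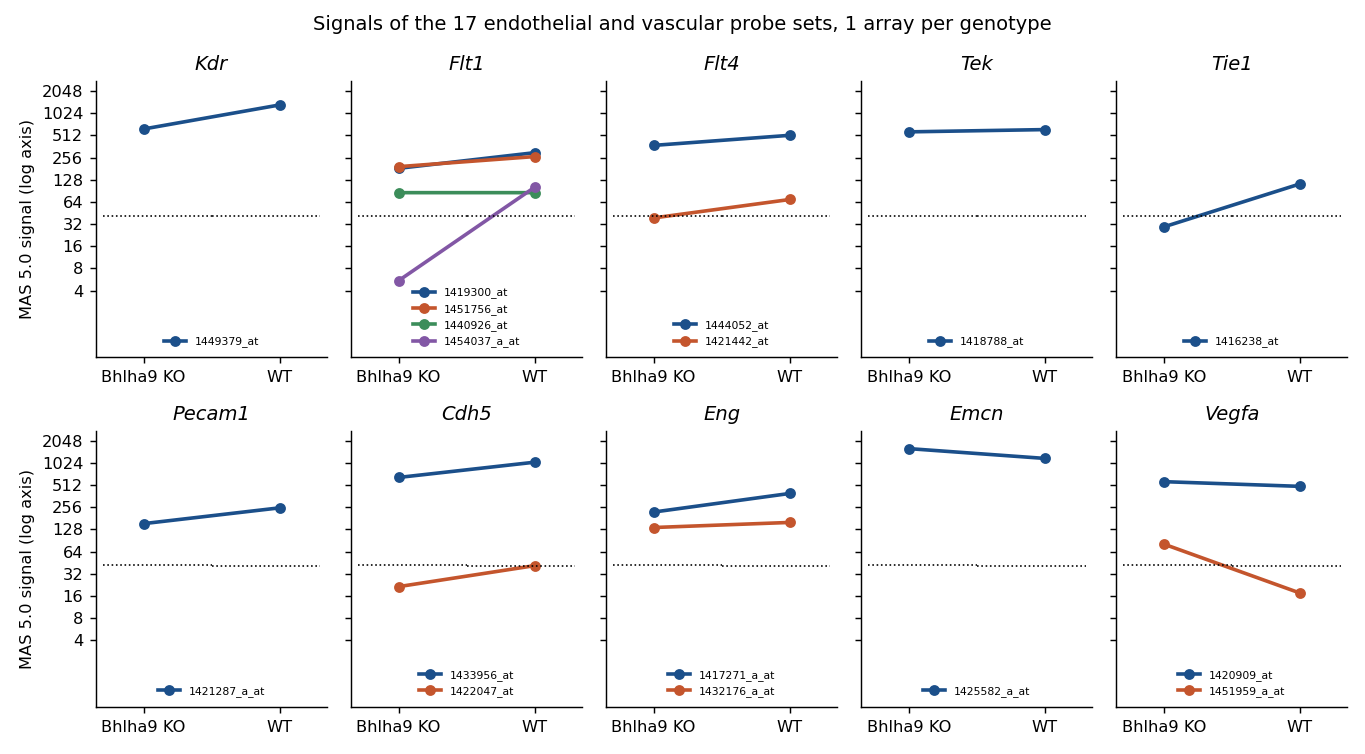
MAS 5.0 signal (log axis) of each member probe set on the Bhlha9 knockout (left) and wild-type (right) array, 1 panel per gene and 1 line per probe set, with the floor of each array dotted. Lines slope up toward wild-type for Kdr, Flt4, 3 Flt1 probe sets, Tie1, Pecam1, Cdh5 and Eng, are nearly flat for Tek, and slope the other way for Emcn and Vegfa.

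Among the VEGF receptors, Kdr had the lowest ratio of the members detected on both arrays. Its probe set read 625 on the knockout array and 1326 on the wild-type array, 2.12-fold lower, a log2 ratio of -1.09. That is 4.86 times the SD of 0.22 found at this signal. Of all probe sets detected on both arrays, 3.21% had a lower ratio, and of the 4968 in the same signal class 1.67%. These classes are 5 equal groups of all such probe sets by mean signal, and not the classes of the SD.

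Flt1 was lower by 3 of its 4 probe sets and level by the other. Its brightest read 183 on the knockout array and 298 on the wild-type array, 1.63-fold lower. The next read 193 on the knockout array and 264 on the wild-type array, 1.37-fold lower. The third read 85.5 on the knockout array and 85.6 on the wild-type array, a log2 ratio of 0.00. The last read 5.47 on the knockout array, under the floor, and 101 on the wild-type array, so it was at least 2.43-fold lower. The 4 log2 ratios thus ran from -1.28, as a bound, to 0.00, and the ratios of -0.71 and -0.45 were 1.93 and 1.24 times the SD of 0.37 at their signal. Which Flt1 transcripts each probe set reads was not analysed here.

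Flt4, which lymphatic endothelium keeps after most blood vessels lose it, was lower by both probe sets. The brighter read 375 on the knockout array and 513 on the wild-type array, 1.37-fold lower, or 1.57 times the SD. The dimmer read 38.8 on the knockout array, just under the floor, and 69.1 on the wild-type array, at least 1.65-fold lower. All 7 VEGF receptor probe sets therefore had ratios at or below 0 with the arrays as deposited. Under other scalings the level Flt1 probe set ran up to 0.09. Kdr was the only one of the 3 receptors past 2-fold by its brightest probe set. The Kdr ratio was 0.38 below that of Flt1 and 0.63 below that of Flt4 on the log2 scale, differences of 0.88 and 1.73 times their combined SD.

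The Tie receptors read differently from each other. Tie1 read 29.4 on the knockout array, under the floor, and 112 on the wild-type array, at least 2.69-fold lower. Its wild-type signal was only 2.73 times the floor, a range in which the SD of 1 ratio was 0.46. Tek, the angiopoietin receptor, read 572 on the knockout array and 614 on the wild-type array, a log2 ratio of -0.10, which was 0.46 times the SD. The Kdr ratio was 0.98 below that of Tek, 3.11 times their combined SD. So the receptor probe sets did not share one ratio, and Tek differed by less than the measurement error.

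Transcripts of the junction genes Cdh5 and Pecam1 were lower to a similar degree. Cdh5, the adherens junction cadherin specific to endothelium, read 650 on the knockout array and 1047 on the wild-type array by its bright probe set, 1.61-fold lower and 3.08 times the SD. Its other probe set read 21.4 on the knockout array and 41.3 on the wild-type array, under the knockout floor and barely past the wild-type one, and gave no fold. Pecam1, present on endothelium and on platelets and some leukocytes, read 154 on the knockout array and 251 on the wild-type array, 1.64-fold lower and 1.94 times the SD. The ratios of Cdh5 and Pecam1, -0.69 and -0.71, and that of the brightest Flt1 probe set, also -0.71, were nearly equal.

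Eng was lower by both probe sets, by unequal amounts. The brighter read 221 on the knockout array and 394 on the wild-type array, 1.79-fold lower and 2.89 times the SD. The dimmer read 136 on the knockout array and 159 on the wild-type array, 1.17-fold lower and 0.62 times the SD. Endoglin is also made by some mesenchymal cells and macrophages.

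Emcn was the exception among the endothelial markers. Its probe set read 1601 on the knockout array and 1179 on the wild-type array, 1.36-fold higher. The log2 ratio of 0.44 was 2.94 times the SD of 0.15 of the brightest class, and 86.0% of all probe sets detected on both arrays had a lower ratio. That class runs from signals of 1210 to 34906, so Emcn lies near its dim end. The class just below had an SD of 0.22, and a larger SD would lower this multiple and those that follow. The ratios of Kdr, Cdh5, Eng and Pecam1 were lower than that of Emcn by 1.53, 1.13, 1.28 and 1.15 log2 units, or 5.68, 4.20, 3.92 and 2.91 times the combined SD. For Cdh5 and Eng this is the brighter of 2 probe sets, and for the other 3 genes the only one.

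Vegfa, the ligand of Kdr and Flt1 and a product of mesenchyme and ectoderm more than of endothelium, was not lower with its receptors. Its brighter probe set read 570 on the knockout array and 492 on the wild-type array, a log2 ratio of 0.21 and 0.95 times the SD. The dimmer read 81.0 on the knockout array and 17.6 on the wild-type array, under the floor there, so it was at least 1.97-fold higher. Both probe sets pointed the same way, and the brighter one differed by less than the measurement error.

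**Figure D3:**
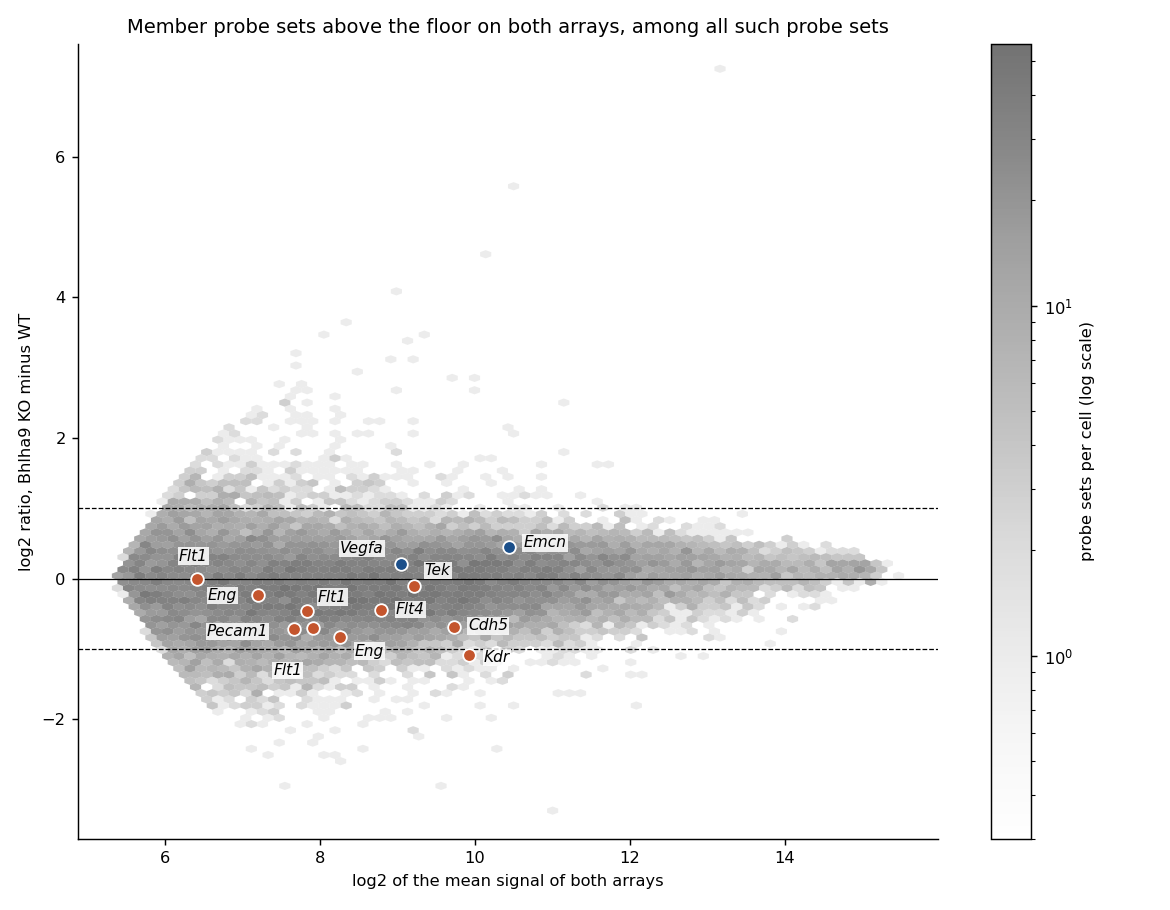
Log2 ratio (Bhlha9 knockout minus wild-type) against the log2 mean signal for the 12 member probe sets above the floor on both arrays (coloured and named) and for all 24843 such probe sets (grey cells), with dashed lines at 2-fold. Kdr lies below the lower line in the sparse lower part of the grey cells, Eng, Pecam1, Cdh5 and 2 Flt1 points lie between that line and 0, and Emcn and Vegfa lie above 0.

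The remaining ligands and co-receptors of the same pathways were read from a list of 9 genes, all detected on both arrays, of which 3 were at least 2-fold lower and 0 higher. Among all genes detected on at least 1 array, 2.65% were as low and 4.15% as high. Nrp2, a co-receptor of Flt4 that limb mesenchyme and neural crest cells also carry, read 754 on the knockout array and 1952 on the wild-type array, with a log2 ratio of -1.37 and all 4 of its probe sets between -1.37 and -0.71. The lymphatic growth factor Vegfd read 342 on the knockout array and 764 on the wild-type array (-1.16), and Vegfb read 273 on the knockout array and 600 on the wild-type array (-1.14). The ligand Vegfc (0.18) and the endothelial phosphatase Ptprb (0.08) were near 0. The co-receptor Nrp1 had -0.06 by its brightest probe set, the nearest to 0 of 4 that were all negative and reached -0.62. The angiopoietins stood on opposite sides, Angpt1, the activating ligand of Tek, at 0.62 and Angpt2, its context-dependent antagonist, at -0.39. The list's median was -0.06, or -0.38 with the median over each gene's probe sets, and ratios on both sides of 0 remained, so the VEGF and angiopoietin ligands did not shift as one.

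Most other endothelial surface genes had negative ratios too. In a list of 23, all detected on both arrays, 19 log2 ratios were negative and 4 positive, where 50.9% of all such genes were negative. The median was -0.19, smaller than the SD of 0.28 for 1 ratio, which does not measure the error of a median over 23 genes. At least 2-fold lower was 1 gene and 0 were at least 2-fold higher, against 2.65% and 4.15% of all genes detected on at least 1 array. The lower gene was Vwf, the von Willebrand factor of endothelium and platelets, at 162 on the knockout array and 352 on the wild-type array. S1pr1, the sphingosine phosphate receptor, and Nos3, the endothelial nitric oxide synthase, had ratios of -0.96 and -0.88. The tight junction gene Cldn5, the adhesion gene Esam and the progenitor antigen Cd34 had ratios of -0.24, -0.43 and -0.16. Calcrl and Podxl, at 0.41 and 0.46, were the highest by the brightest probe set. Dimmer probe sets passed 2-fold for Podxl (1.13), Tspan18 (1.10) and Mmrn2 (-1.13). Endothelial surface genes were thus detected on both arrays. Their median of -0.19 lay nearer 0 than the -0.69 of the members detected on both arrays.

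The transcription factors of the endothelial lineage had ratios around 0. Of 19 detected genes, 0 passed 2-fold by the brightest probe set, though the dimmer Foxc1 probe set had 1.27. In all, 11 ratios were negative and 8 positive, and the median was -0.05. Erg, a pan-endothelial ETS factor, read 313 on the knockout array and 343 on the wild-type array, a ratio of -0.13. Fli1 and Tal1, shared with blood progenitors, had ratios of -0.04 and 0.04, though the other Fli1 probe set had -0.65. Sox18 and Sox7 had -0.41 and -0.44 and Sox17 0.28. The lowest ratio was that of the broadly expressed Ets2, -0.97, and the highest that of Hhex, 0.77, which liver also expresses.

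Arterial and venous genes were mixed. Among 12 detected arterial genes, 7 ratios were negative and 5 positive, and the median was -0.36, or from -0.55 to -0.22 under the alternatives. The netrin receptor Unc5b was 2.26-fold lower and the Notch target Hey2 was 2.55-fold higher. The gap junction gene Gja4 and the transmembrane ligand Efnb2 had ratios of -0.77 and -0.65, the 4 Efnb2 probe sets lying between -0.76 and 0.09, and the Notch ligand Dll4 had 0.19 by its brightest probe set and -0.70 by the other. In the venous list of 5 genes, which shares Nrp2 with the ligand and co-receptor list, Ephb4 had -0.34 and Nr2f2, which limb mesenchyme also expresses, 0.66, with its 6 probe sets between -0.08 and 1.12.

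Lymphatic genes ran the other way. Of 6 genes, 4 passed 2-fold upward and 0 downward. Their median was 1.38 with 2 genes at their bound, and from 0.63 to 2.02 with other floors. Prox1 read 106 on the knockout array and 23.3 on the wild-type array, under the floor there, at least 2.58-fold higher. Lyve1 read 108 on the knockout array and did not reach the floor on the wild-type one, at least 2.62-fold higher, with its other detected probe set at 0.37. Ccbe1 and Reln were 3.59-fold and 10.9-fold higher, and the lowest of the 3 Ccbe1 probe sets had 0.05. Liver expresses Prox1, liver sinusoids and macrophages carry Lyve1, and nervous tissue makes Reln. Flt4, the receptor of this lineage, was lower on the same array.

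Mural cells, the smooth muscle and pericytes around vessels, gave a split reading. Among 11 detected genes, 2 passed 2-fold downward, the smooth muscle genes Acta2 (-1.85) and Tagln (-1.25), and 1 was higher, Rgs4, at least 2.30-fold. The pericyte receptor Pdgfrb, which limb mesenchyme also expresses, had -0.87 and by its other probe set -1.30, and the pericyte gene Rgs5 had 0.75. The list's median was 0.23, but -0.22 over the genes detected on both arrays, -0.77 with the 20th-percentile floor and -0.38 with a pseudocount of 32, so it had no settled sign. Among 28 hypoxia-responsive genes, the class to which Vegfa belongs, 0 passed 2-fold in either direction by the brightest probe set and the median was 0.03. The glucose transporters Slc2a1 and Slc2a3 had -0.13 and 0.89. Dimmer probe sets of 2 genes did pass it, with 1.59 for Slc2a3 and -1.66 for Mxi1.

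**Figure D4:**
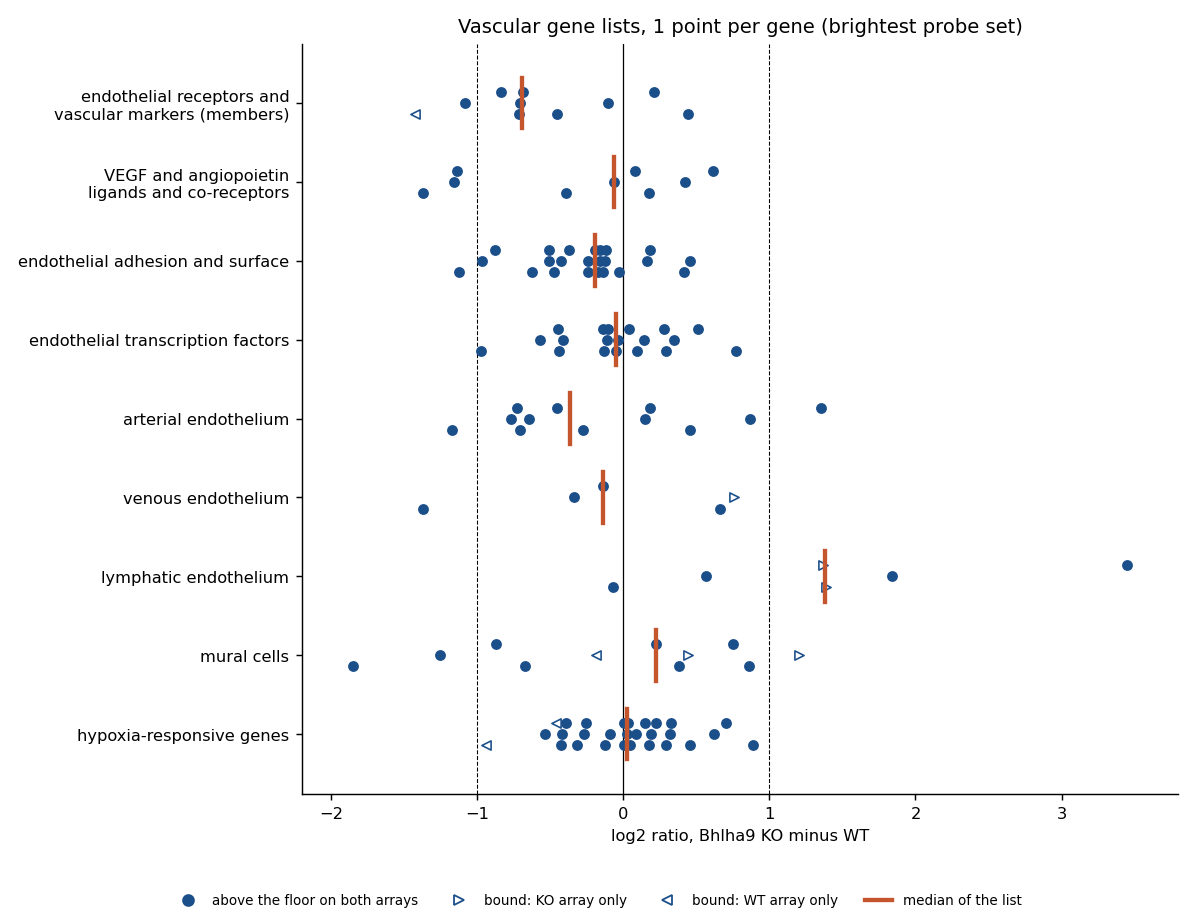
Log2 ratio (Bhlha9 knockout minus wild-type) of each gene of the members and 8 vascular or hypoxia lists by its brightest probe set, with open triangles for bounds, a bar at each list's median and dashed lines at 2-fold. The members' median of -0.70 is the lowest plotted, the surface and transcription factor lists centre on -0.19 and -0.05, and the lymphatic list stands at 1.38.

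The members' ratios moved little with the scaling of the arrays, though the close ratios of Pecam1, Flt1 and Cdh5 changed order. Whether the arrays were centred on the median, scaled by quantiles or loess, floored differently or given a pseudocount, Kdr stayed between -1.09 and -1.02, Eng between -0.84 and -0.69, Cdh5 between -0.69 and -0.61, Pecam1 between -0.71 and -0.56 and Emcn between 0.43 and 0.48. Tek ran from -0.10 to 0.01 and changed sign. So did the level Flt1 probe set, which ran from -0.00041 to 0.09. Tie1 ran from -1.94 to -1.23 and was under the floor on both arrays once the floor was set to the 60th percentile.

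**Figure D5:**
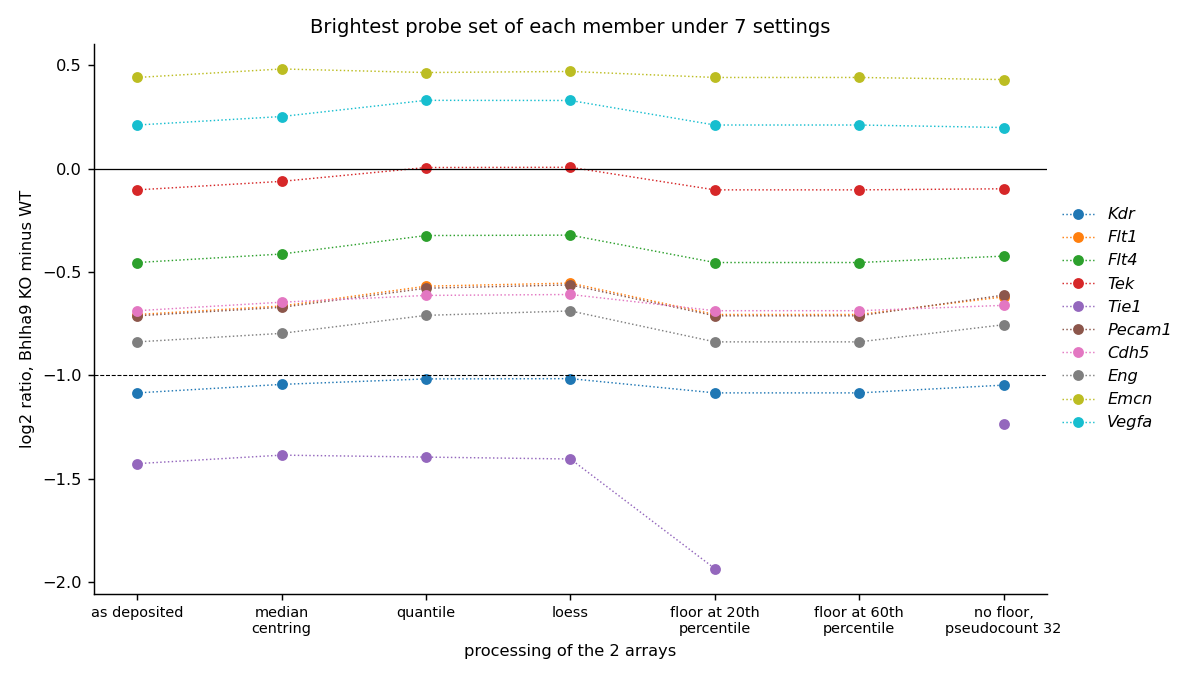
Log2 ratio (Bhlha9 knockout minus wild-type) of each member's brightest probe set under 7 ways of scaling or flooring the 2 arrays, with a dashed line at 2-fold lower. Kdr stays below -1 and Emcn above 0.4 throughout, Tek lies near 0, and Tie1 has no value with the floor at the 60th percentile.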

How the data were processed

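Per the labels' protocols, total RNA from whole limb buds was reverse-transcribed, labelled and hybridised to Affymetrix mouse arrays, and per the series' design text the authors summarised the deposited intensities with MAS 5.0. Of 45101 probe sets, 64 controls were left out. Symbols came from the platform annotation, 932 probe sets with several symbols and 9160 unnamed here were not used for genes, and all 17 member probe sets matched RefSeq genes of GRCm38.p6 by Entrez identifier.

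Signals under the 40th percentile of an array were raised to it. Ratios are log2 of knockout over wild-type, and those of probe sets detected on a single array are bounds (at least N-fold). The SD of a ratio came from the median absolute deviation of the difference between probe-set pairs of 1 gene, scaled to an SD and divided by the root of 2. Named genes are all members and, of the vascular and blood lists, those past 2-fold in either direction, at most 4 a direction, while lists of other tissues are given by counts. The 17 other gene lists were read by each gene's brightest probe set. Members and lists were chosen with earlier results of these data known, and other list genes were chosen for naming after their values were seen. No p-value was computed. Alternatives changed the scaling, the floor, the pseudocount, the probe sets and the fold threshold. The steps were tested on simulated data. Python 3.11.15, numpy 2.4.6, pandas 2.3.3, matplotlib 3.10.9, R 4.3.3 and limma 3.58.1 were used.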

Additional observations from a re-analysis of the deposited data

How the results depend on the processing

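Under the 8 alternatives that give it, the members' median log2 ratio stayed between -0.70 and -0.56 and did not move by more than the SD of 1 ratio. The count of member probe sets at least 2-fold lower stayed at 3, or 2 with unique probe sets alone, except that it was 1 once the floor was set to the 60th percentile, where Tie1 and the dim Flt1 probe set were under the floor on both arrays, and 8 at a threshold of 1.5-fold. The count at least 2-fold higher was 0, and 1 (the dim Vegfa probe set) under median centring, under a 20th-percentile floor and under a pseudocount of 32. Of 95 recomputed ratios of single member probe sets, 6 moved by more than the SD, all of them of the dim probe sets of Tie1, Cdh5, Vegfa and Flt1. Under the 20th-percentile floor, the dim Flt1 probe set was at -3.60 and that of Vegfa at 2.20. Of the list medians, 14 moved and 105 did not, mostly in lists with genes detected on 1 array. Signals within about 3 times the floor limit what can be said of Tie1, and with 1 array per genotype the spread between embryos is unknown.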

Other observations

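Blood cells, which share the vessels, did not follow the endothelial receptors as one group. Of 13 detected genes of primitive red cells, 12 had log2 ratios above 0, with a median of 0.32. The membrane skeleton gene Epb42 and the erythroid factor Klf1 were 2.62-fold and 2.03-fold higher, and the embryonic globins Hbb-y, Hba-x and Hbb-bh1 had ratios of -0.04, 0.01 and 0.26. All 5 detected genes of megakaryocytes and platelets had negative ratios, with a median of -0.45. Among them Pf4, platelet factor 4, read 795 on the knockout array and 960 on the wild-type array. Of 17 detected genes of macrophages and other white cells, 1 was at least 2-fold lower, the fractalkine receptor Cx3cr1, which read 29.8 on the knockout array, under the floor, and 118 on the wild-type array, and 0 were higher. The growth factor receptor Csf1r and the pan-leukocyte gene Ptprc had ratios of -0.90 and -0.84, and Mrc1 and C1qb 0.91 and 0.81, the 3 C1qb probe sets lying between -0.45 and 0.81. The median of this list was -0.19, or from -0.24 to 0.00 under the alternatives, and a dimmer probe set of Laptm5 had -1.41.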
